A study of Homo sapiens with 9 samples.

Results

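The TNF superfamily ligands and receptors were followed in BL2 cells, a human Burkitt lymphoma cell line, after stimulation with recombinant human CD40L or with LPS. Members were chosen by name. They were the genes whose symbol in the array annotation starts with TNFRSF or TNFSF and a number, together with TNF, LTA, LTB, LTBR, CD70 and NGFR, leaving aside CD40, CD27 and FAS. The choice was made with earlier results of these data known, so the shares of members called are not independent of those results. The rule found 39 genes among the 19775 named by probe sets that list exactly 1 gene: 14 ligands, 22 receptors and 3 noncoding genes that carry a receptor's name (TNFRSF10A-DT, TNFRSF10B-AS1 and TNFRSF14-AS1). Another 3 symbols of the family, TNFRSF6B, TNFSF12 and TNFSF12-TNFSF13, were named only by probe sets shared with another gene and were not measured on their own.

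The series holds 9 Affymetrix arrays of total RNA, 3 each from cells given CD40L for 6 hrs, cells given LPS for 6 hrs and cells given nothing (control). Each condition was sampled once in each of 3 batches, which the labels number as biological replicates 1 to 3. All arrays come from 1 cell line, so differences between patients or between lymphomas are not sampled. The labels give no time for the control cells.

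Ligands of the TNF superfamily are mostly trimeric proteins of the cell surface, some of which are shed or secreted, and their receptors recruit TRAF adaptors or death domain proteins that lead to NF-κB, to MAP kinases or to apoptosis. In B cells the family carries survival signals (BAFF and its receptors), the dialogue with T cells (CD40, CD70, OX40L) and the shaping of lymphoid tissue (lymphotoxins). CD40L is itself a ligand of this family, and CD40 is its receptor on B cells. LPS is a bacterial lipid sensed by Toll-like receptor 4, which belongs to another receptor family.

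Levels are the deposited log2 values, on which 1 unit is a doubling for bright probe sets and somewhat more than a doubling for dim ones. Each gene was read from its probe set with the highest mean over the 9 arrays. Levels of different genes were set side by side only as percentiles of all probe sets or against the median of all probe set means. Array medians lay between 6.42 and 6.47, and replicate arrays correlated at 0.994 to 0.997. Among markers of other cells, 2 of 6 T and NK cell genes, 2 of 6 monocyte genes and 2 of 5 fibroblast genes lay above the median of all probe set means, while all 5 measured B cell genes did, MS4A1 at the 99.5th percentile. None of these T cell, NK cell, monocyte or fibroblast markers passed the test after CD40L or LPS (limma; 3 at an unadjusted p under 0.05 after CD40L and 0 after LPS). Of the 5 B cell markers, 3 were lower after CD40L and 1 after LPS, beside 1.87% and 0.892% of all probe sets. Their median log2 difference was -0.34 after CD40L and -0.18 after LPS. PAX5 went the other way without being called (0.39 and 0.31), and MS4A1 differed by -0.04 and -0.07. The part of these marker differences in those of the members was not tested. As RNA of whole cultures was measured, fewer cells of one kind and less RNA per cell cannot be told apart.

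To ask which members responded to CD40L, the CD40L arrays were compared with the control arrays. In limma, 1 linear model of condition plus batch was fitted to the 9 arrays, with Benjamini-Hochberg adjustment over 54613 probe sets and a threshold of 0.05. TNFSF4, TNFRSF18, LTA and CD70 were higher after CD40L and TNFSF8 was lower, which makes 5 of 39 members (12.8%), against 5.58% of all probe sets called in that comparison (3.71% higher and 1.87% lower). Counted over 1 probe set per named gene, the share called was 7.95%, and over the 12630 named genes above the median of all probe set means it was 12.3%. All 5 called members were among the 24 members above that median, so 20.8% of these were called. At an unadjusted p under 0.05 there were 8 members. The median log2 difference was 0.013 over the 39 members and 0.005 over all probe sets.

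After LPS, TNFRSF18 and TNFSF4 were higher and no member was lower. That is 2 of 39 members (5.13%, with 6 at an unadjusted p under 0.05), beside 2.06% of all probe sets (1.17% higher and 0.892% lower), 3.1% of named genes and 4.81% of those above the median. Both comparisons use the same 3 control arrays, so the 2 genes that they have in common are not independent results. Between the stimuli, TNFSF4 and CD70 were higher after CD40L than after LPS (2 of 39, or 5.13%, with 5 at an unadjusted p under 0.05), beside 0.396% of all probe sets (0.3% higher and 0.0952% lower), 0.642% of named genes and 0.982% of those above the median. The median log2 difference over the members was 0.028 for LPS against control (0.0029 over all probe sets) and 0.0057 for CD40L against LPS (0.0049 over all probe sets).

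By kind, 3 ligands were higher and 1 lower after CD40L out of 14 (28.6%), and 1 receptor was higher out of 22 (4.55%). The share was 7.95% over named genes and 12.3% over those above the median. After LPS, 1 ligand (7.14%) and 1 receptor (4.55%) were called, beside 3.1% of named genes. In the direct comparison of the stimuli, 2 ligands (14.3%) and no receptor were called (2 receptors at an unadjusted p under 0.05), beside 0.642% of named genes. For the 34 members not called after CD40L, the 95% confidence intervals of the difference together reached from -0.29 to 0.335. A change of the size seen for TNFSF4 would therefore lie outside the interval of each of those members on this scale, whereas one of the size seen for CD70 would lie inside the interval of some.

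**Figure D1:**
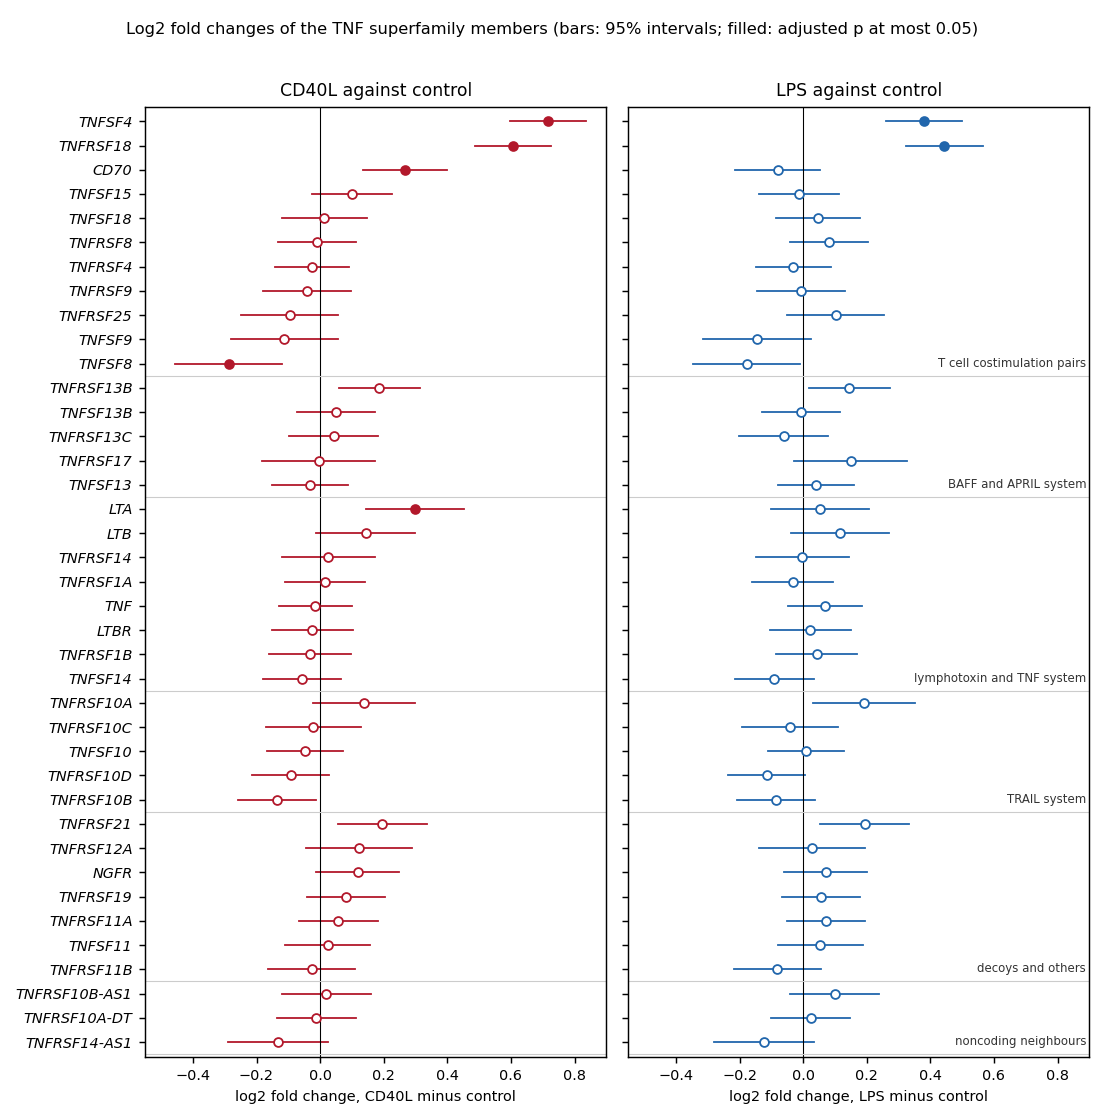
Log2 difference from control of the 39 members after CD40L (left) and after LPS (right), grouped by role, with bars for the 95% confidence interval of the limma fit and filled points for adjusted p at most 0.05. TNFSF4 and TNFRSF18 are filled in both panels, and CD70, LTA and TNFSF8 on the CD40L side only.

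The largest differences among the members were those of TNFSF4 and TNFRSF18, both from the group that mediates contact with T cells. TNFSF4 encodes OX40L, the ligand that antigen-presenting cells show to OX40 on activated T cells. Its level was 7.58, 7.82 and 7.71 in batches 1, 2 and 3 of the CD40L cells, 7.31, 7.41 and 7.39 in the LPS cells, and 6.93, 7.03 and 7.01 in the control cells. The 3 conditions did not overlap, and their order was the same in every batch. TNFSF4 was 1.64-fold higher after CD40L (log2 difference 0.72, standard error 0.056, limma adjusted p = 8.9e-07). After LPS it was 1.3-fold higher (0.38, standard error 0.056, adjusted p = 0.00171), with a difference of 0.38 in each of the 3 batches. The CD40L cells exceeded the LPS cells by 0.34 (standard error 0.056, adjusted p = 0.0105). That last call was lost in the fit with no batch term (adjusted p = 0.106) and in 7 of the 12 fits that leave out a batch or an array, and the LPS call was lost without replicate 3 (adjusted p = 0.0581).

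TNFRSF18 encodes GITR, a receptor best known from regulatory and activated T cells. Its level was 7.70, 7.98 and 7.89 in the CD40L cells, 7.49, 7.86 and 7.74 in the LPS cells, and 7.14, 7.33 and 7.28 in the control cells. Both stimulated conditions lay wholly above the control, and they overlapped each other. The difference from control was 0.61 after CD40L (1.52-fold, standard error 0.057, adjusted p = 5.62e-06) and 0.44 after LPS (1.36-fold, standard error 0.057, adjusted p = 0.000503). Without the batch term the LPS difference was no longer called (adjusted p = 0.0679). A second probe set of TNFRSF18 read 7.49, 7.55 and 7.64 after CD40L, 7.15, 7.35 and 7.16 after LPS, and 6.74, 7.03 and 6.85 in control cells, with all 3 conditions apart. The probe sets differ on the direct comparison of the stimuli. The CD40L cells were above the LPS cells by 0.16 on the brighter one (95% confidence interval 0.04 to 0.28, adjusted p = 0.651) and by 0.34 on the other (0.20 to 0.48, adjusted p = 0.0248).

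The promoter windows of these genes, the 2 called after both stimuli, are shown for comparison. Each holds the 300 bases from 250 before to 50 after an annotated start of transcription, from RefSeq on GRCh38.p14, and both genes are read from the minus strand (TNFSF4 chr1:173205483-173205782, TNFRSF18 chr1:1206543-1206842). Capitals mark letters that match 1 of 3 motifs searched on both strands: the κB consensus bound by NF-κB dimers, the GC box GGGCGG and the TATA box TATAAA.
TNFSF4: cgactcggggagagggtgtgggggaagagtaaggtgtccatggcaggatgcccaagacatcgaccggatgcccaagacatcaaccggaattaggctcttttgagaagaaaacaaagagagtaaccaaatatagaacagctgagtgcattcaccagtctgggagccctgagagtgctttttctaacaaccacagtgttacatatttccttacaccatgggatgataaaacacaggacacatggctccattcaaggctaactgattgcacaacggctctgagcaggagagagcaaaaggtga
TNFRSF18: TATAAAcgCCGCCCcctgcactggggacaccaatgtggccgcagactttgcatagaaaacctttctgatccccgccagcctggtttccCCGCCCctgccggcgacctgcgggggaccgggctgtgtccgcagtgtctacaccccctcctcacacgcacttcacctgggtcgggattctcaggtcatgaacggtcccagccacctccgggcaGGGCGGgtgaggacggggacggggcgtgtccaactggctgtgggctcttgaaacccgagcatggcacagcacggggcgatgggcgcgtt
No stretch of the TNFSF4 window matched any of the 3. The TNFRSF18 window held 3 GC boxes, which begin 242, 162 and 39 bases before the start, and the letters of a TATA box at its far end, 250 bases before the start. Over all 35116 RefSeq windows of this length, 5.91% held the κB consensus, 45.0% a GC box and 11.5% a TATA box. Windows were at hand for 25 of the 39 members, none of them for CD70 or TNFSF8. A match is a run of letters, and no binding was measured.

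CD70, the ligand of CD27, was on the arrays of the CD40L cells at 9.39, 9.24 and 9.18, of the LPS cells at 8.92, 8.85 and 9.00, and of the control cells at 9.01, 8.98 and 9.02. The CD40L values lay above all others, while the LPS and control values overlapped. The difference was 0.27 for CD40L against control (1.2-fold, standard error 0.063, limma adjusted p = 0.0179) and -0.08 for LPS against control (95% confidence interval -0.21 to 0.05, adjusted p = 0.733). CD40L exceeded LPS by 0.35 (standard error 0.063, adjusted p = 0.0181). Over the batches the CD40L difference was 0.38, 0.26 and 0.16. It was 0.20 and no longer called after quantile normalization (adjusted p = 0.0828), and 0.21 without batch 1 (adjusted p = 0.269). CD40L against LPS was not called without the batch term (adjusted p = 0.0701).

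TNFSF8 encodes CD30L, the ligand of CD30. It was at 9.14, 9.09 and 9.00 after CD40L, at 9.19, 9.01 and 9.35 after LPS, and at 9.25, 9.44 and 9.40 in control cells. The CD40L values lay below the control values, by 0.12 to 0.40 over the batches in a fitted difference of -0.29 (standard error 0.079, adjusted p = 0.0429). This was the weakest call of the 5. It was lost in 12 of 21 alternative settings, among them the fit with no batch term (adjusted p = 0.104) and median centring (adjusted p = 0.0648). A second TNFSF8 probe set gave -0.24 (standard error 0.065, adjusted p = 0.0421), and the third, which reads a lower level, 0.09 (standard error 0.07, adjusted p = 0.644). The LPS difference on the brightest was -0.18 (adjusted p = 0.386), with -0.06, -0.43 and -0.05 in the batches, and it was -0.053 without batch 2.

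**Figure D2:**
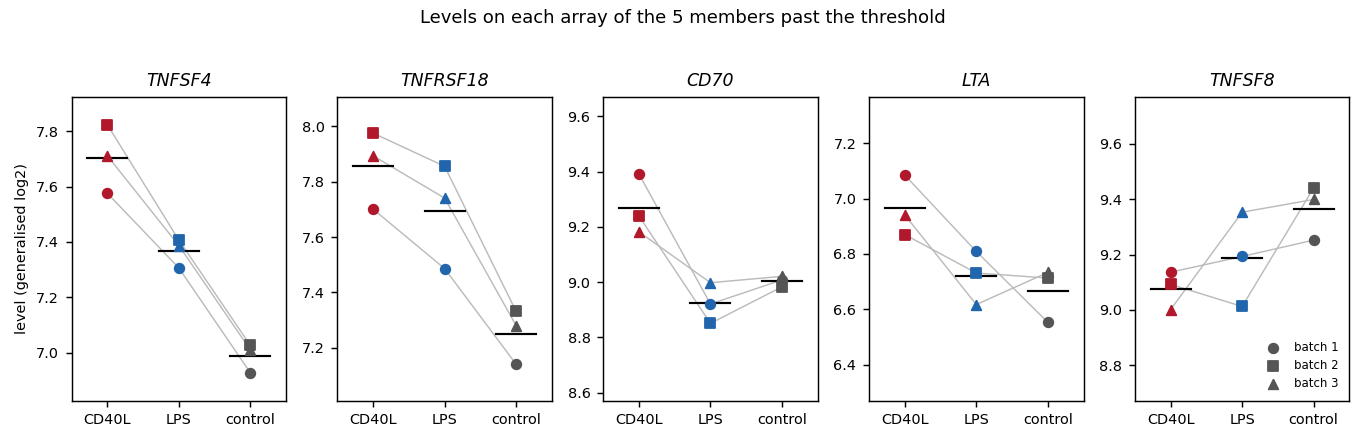
Level (deposited log2 value) of the 5 members called after CD40L on each array, with CD40L, LPS and control from left to right, symbols joined by thin lines for the batches and a bar for the mean of 3 arrays; each panel has its own axis range. TNFSF4 separates all 3 conditions, TNFRSF18 separates both stimuli from control, and TNFSF8 is lower after CD40L than in control. For CD70 and LTA the CD40L points lie above all others, but only CD70 of these 2 was called against LPS.

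The partners of these ligands and receptors, and the other pairs of the group, were read on the same arrays. OX40 itself (TNFRSF4) was at 6.99, 7.12 and 7.05 after CD40L, 7.00, 7.14 and 7.00 after LPS, and 7.06, 7.16 and 7.00 in control cells, so that the conditions overlapped (difference -0.03 after each stimulus, adjusted p = 0.911 and 0.923). The GITR ligand TNFSF18 lay at the 30.6th percentile of all probe sets, between 6.08 and 6.28 on the 9 arrays, with differences of 0.01 after CD40L and 0.05 after LPS. CD30 (TNFRSF8) differed by -0.01 and 0.08. TNFSF9, the ligand of 4-1BB, was at 7.85, 8.10 and 7.74 after CD40L, 7.92, 7.95 and 7.72 after LPS, and 7.96, 7.96 and 8.11 in control cells, the LPS values lying narrowly below the control values. 4-1BB (TNFRSF9) differed by -0.04 and -0.01. Death receptor 3 (TNFRSF25) showed -0.10 after CD40L and 0.10 after LPS on its brightest probe set, and its ligand TNFSF15 showed 0.10 and -0.01. The other TNFRSF25 probe sets gave 0.07, -0.02, 0.05 and -0.04 after CD40L and, in the same order, 0.09, 0.02, 0.04 and -0.11 after LPS. TNFSF9, TNFRSF9, TNFRSF25 and TNFSF15 are given to complete the pairs of this group. None of these 7 genes passed the test in any of the 3 comparisons. CD27, the receptor of CD70, is outside the naming rule. It was at 8.48, 8.79 and 8.55 after CD40L, 9.04, 9.10 and 9.11 after LPS, and 9.23, 9.30 and 9.04 in control cells. The CD40L cells were thus the low ones for CD27, the receptor (difference -0.59, adjusted p = 5.13e-05), and the high ones for CD70, its ligand.

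Lymphotoxin α, encoded by LTA, is secreted as a homotrimer or held at the surface by lymphotoxin β, encoded by LTB. LTA was at 7.08, 6.87 and 6.94 after CD40L, 6.81, 6.73 and 6.62 after LPS, and 6.55, 6.71 and 6.73 in control cells. The CD40L values lay above both other conditions. The difference from control was 0.30 (1.23-fold, standard error 0.073, limma adjusted p = 0.0223), and it was 0.53 in batch 1 beside 0.16 and 0.21 in the others. Without batch 1 it was 0.18 (adjusted p = 0.364). It was also lost with no batch term (adjusted p = 0.0533). The direct difference from the LPS cells was 0.25 (95% confidence interval 0.09 to 0.40, adjusted p = 0.387), and in a fit on those 6 arrays alone it was called (adjusted p = 0.0189).

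LTB was at 9.45, 9.63 and 9.87 after CD40L, 9.32, 9.66 and 9.88 after LPS, and 9.23, 9.72 and 9.57 in control cells, so that the conditions overlapped in every pair. Its difference was 0.14 after CD40L (95% confidence interval -0.01 to 0.30, adjusted p = 0.374) and 0.12 after LPS (adjusted p = 0.629). By batch the LPS difference was 0.10, -0.06 and 0.31. Control replicate 2 was the high one of its group. Without it the CD40L difference was 0.25 (adjusted p = 0.0278), and without the whole batch it was 0.26 (adjusted p = 0.0278). TNF, which lies between LTA and LTB on chromosome 6, was at 6.43, 6.38 and 6.39 after CD40L, 6.49, 6.51 and 6.46 after LPS, and 6.45, 6.41 and 6.39 in control cells. The LPS values were narrowly above the rest. The fitted difference was 0.07 (95% confidence interval -0.05 to 0.18, adjusted p = 0.739), on a probe set at the 49.3rd percentile, where differences are compressed.

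The promoter windows of the lymphotoxin genes are given because both hold the κB consensus. Counted by gene, so that overlapping windows of 1 gene count once, 7 of the 25 members with a window held the κB consensus (against 7.09% of all genes with a window), 16 a GC box (against 48.3%) and 6 a TATA box (against 14.0%). The windows lie at chr6:31572039-31572338 on the plus strand (LTA, the later of its starts) and chr6:31582375-31582674 on the minus strand (LTB), with capitals as above.
LTA: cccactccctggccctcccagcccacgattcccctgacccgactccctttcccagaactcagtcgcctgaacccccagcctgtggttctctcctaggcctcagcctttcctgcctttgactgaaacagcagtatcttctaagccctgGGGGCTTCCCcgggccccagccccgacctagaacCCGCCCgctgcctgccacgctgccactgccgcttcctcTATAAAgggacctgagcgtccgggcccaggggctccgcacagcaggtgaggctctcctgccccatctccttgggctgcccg
LTB: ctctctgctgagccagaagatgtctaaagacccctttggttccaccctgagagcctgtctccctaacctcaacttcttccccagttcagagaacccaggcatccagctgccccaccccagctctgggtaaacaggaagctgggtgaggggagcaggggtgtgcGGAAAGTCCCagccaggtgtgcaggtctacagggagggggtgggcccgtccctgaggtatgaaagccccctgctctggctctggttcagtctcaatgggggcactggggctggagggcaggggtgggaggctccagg
In LTA the κB letters begin 103 bases before the start, a GC box 69 and a TATA box 31 bases before it. In LTB the κB letters begin 87 bases before the start and neither of the other motifs occurred. The TNF window held 2 GC boxes and a TATA box but no κB consensus. Of the 5 members called after CD40L, 3 had a window, and LTA alone of these held the κB consensus. The window of the earlier LTA start held none of the 3 motifs. The other members with a κB match, LTB, TNFRSF9, TNFRSF14, TNFRSF25, TNFSF13 and TNFSF14, were not called in any comparison. A link between the motif and a call was not tested.

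The receptors of this branch did not pass the test in any comparison. LTBR, the lymphotoxin β receptor, was at 6.59, 6.59 and 6.58 after CD40L, 6.71, 6.72 and 6.48 after LPS, and 6.65, 6.63 and 6.56 in control cells. The TNF receptors TNFRSF1A and TNFRSF1B differed from control by 0.02 and -0.03 after CD40L and by -0.03 and 0.04 after LPS. HVEM (TNFRSF14), which binds LIGHT, showed 0.03 after CD40L (95% confidence interval after LPS -0.15 to 0.14), and LIGHT (TNFSF14) showed -0.06 and -0.09. Of the 8 genes of the lymphotoxin and TNF branch, 1 was thus called after CD40L. That is 12.5%, beside 7.95% of named genes and 12.3% of those above the median. None was called after LPS (limma, 0 at an unadjusted p under 0.05) and none between the stimuli (1 at an unadjusted p under 0.05).

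BAFF and APRIL are survival factors of B cells and plasma cells, with the receptors BAFF-R, TACI and BCMA. TACI (TNFRSF13B) was at 8.23, 8.10 and 8.14 after CD40L, 8.12, 7.98 and 8.24 after LPS, and 7.97, 7.87 and 8.06 in control cells. The CD40L values were above the control values, by 0.08 to 0.25 over the batches, yet the fitted difference of 0.19 missed the threshold (95% confidence interval 0.06 to 0.31, limma adjusted p = 0.0934). Of 21 alternatives it passed in 1, without CD40L replicate 3 (0.25, adjusted p = 0.0484). After LPS it was 0.15 (adjusted p = 0.33). BAFF-R (TNFRSF13C) was at 7.08, 7.36 and 7.22 after CD40L, 7.13, 7.20 and 7.01 after LPS, and 7.21, 7.16 and 7.16 in control cells, with overlap throughout. BCMA (TNFRSF17), which lay at the 97.7th percentile of all probe sets, was at 10.96, 11.09 and 11.03 after CD40L, 11.20, 10.98 and 11.37 after LPS, and 11.15, 11.01 and 10.94 in control cells. Its difference after LPS was 0.15 (95% confidence interval -0.03 to 0.33), and it was 0.43 in batch 3 beside 0.05 and -0.03 in the others, and 0.0073 without batch 3. Of the ligands, BAFF (TNFSF13B), at the 30.0th percentile, differed by 0.05 after CD40L and -0.01 after LPS, and APRIL (TNFSF13) by -0.03 and 0.04. None of the 5 was called in any comparison (limma; 1, 1 and 0 at an unadjusted p under 0.05 for CD40L, LPS and the direct comparison).

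TRAIL (TNFSF10) triggers apoptosis through TNFRSF10A and TNFRSF10B, and TNFRSF10C and TNFRSF10D bind it without passing on a full death signal. TRAIL lay between 5.77 and 5.98 on the 9 arrays, at the 8.07th percentile of all probe sets. TNFRSF10A was at 8.10, 8.15 and 7.88 after CD40L, 8.23, 8.10 and 7.96 after LPS, and 8.07, 7.73 and 7.91 in control cells, overlapping in every pair. Its difference after CD40L was 0.14 (adjusted p = 0.422), made up of 0.03, 0.42 and -0.04 in the batches, and it was -0.0048 without batch 2. After LPS it was 0.19 (adjusted p = 0.29), and 0.105 without batch 2. The other TNFRSF10A probe sets gave 0.03 and -0.09 after CD40L, and 0.08 and -0.01 after LPS, so that its direction depends on the probe set. TNFRSF10B was at 8.07, 8.29 and 8.32 after CD40L, 8.16, 8.25 and 8.41 after LPS, and 8.27, 8.40 and 8.41 in control cells. On this brightest probe set it was lower than control in each batch after CD40L, by 0.08 to 0.21. The fitted difference of -0.13 was not called (95% confidence interval -0.26 to -0.01, adjusted p = 0.253). The other TNFRSF10B probe sets gave -0.04, -0.03 and -0.05 after CD40L, each with mixed directions over the batches. The decoy receptors TNFRSF10C and TNFRSF10D differed by -0.02 and -0.09 after CD40L and by -0.04 and -0.11 after LPS on their brightest probe sets. A second TNFRSF10C probe set, at the 57.4th percentile beside the 61.2nd of the brightest, went the other way after CD40L. It read 6.75, 6.78 and 6.67 after CD40L, 6.52, 6.56 and 6.44 after LPS, and 6.57, 6.60 and 6.48 in control cells, so that the CD40L values lay above all others. Its difference was 0.18 from control (95% confidence interval 0.07 to 0.29, adjusted p = 0.0632) and 0.22 from LPS (0.11 to 0.34, adjusted p = 0.14), and neither was called. The other 2 probe sets of TNFRSF10C stood at -0.06 each after CD40L. None of the 5 passed the test in any comparison (limma; 1, 1 and 0 at an unadjusted p under 0.05).

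**Figure D3:**
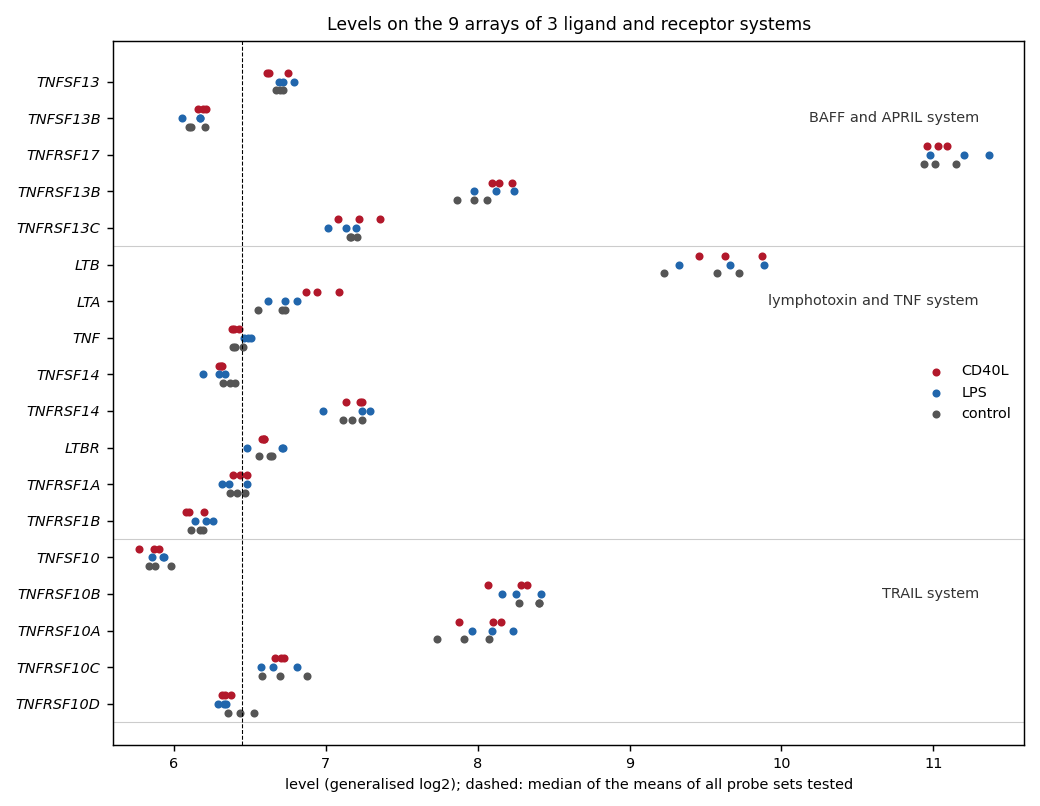
Level (deposited log2 value) on each array of the members of the BAFF and APRIL, lymphotoxin and TNF, and TRAIL systems, with CD40L, LPS and control in colour and a dashed line at the median of all probe set means. LTA after CD40L is the only one of these 18 genes called, and its 3 CD40L points lie right of its others.

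Among the remaining 7 protein-coding members, death receptor 6 (TNFRSF21) came nearest, and it is named here after its values were seen. It was at 8.43, 8.56 and 8.51 after CD40L, 8.37, 8.53 and 8.59 after LPS, and 8.37, 8.23 and 8.31 in control cells. The difference was 0.20 after CD40L (95% confidence interval 0.06 to 0.33, adjusted p = 0.11) and 0.19 after LPS (0.05 to 0.33, adjusted p = 0.189), and it was smallest in batch 1 for both. RANK, RANKL, osteoprotegerin, NGFR, TNFRSF19 and the TWEAK receptor TNFRSF12A had differences between -0.03 and 0.12 after CD40L. RANKL (TNFSF11) and osteoprotegerin (TNFRSF11B), known for their part in bone, lay at the 22.2nd and 14.8th percentiles. In all, 15 members lay below the median of all probe set means, none of them was called, and none spanned more than 0.327 over the 9 arrays.

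Across batches, 9 members were higher than control in all 3 batches after CD40L, 5 were lower and 25 were mixed. For LPS it was 10, 6 and 23 members. Groups that did not overlap were found for 8 members above and 2 below control after CD40L, beside 9.09% above and 7.27% below over all probe sets. Over named genes it was 10.9% and 8.63%, and over those above the median 14.4% and 10.2%. After LPS it was 4 and 2 members, beside 7% and 6.38% of all probe sets. The LPS shares were 7.96% and 7.75% over named genes, and 9.99% and 8.61% over those above the median. The 8 members above control after CD40L make 20.5% of the list and the other counts of members 5.13% or 10.3%.

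**Figure D4:**
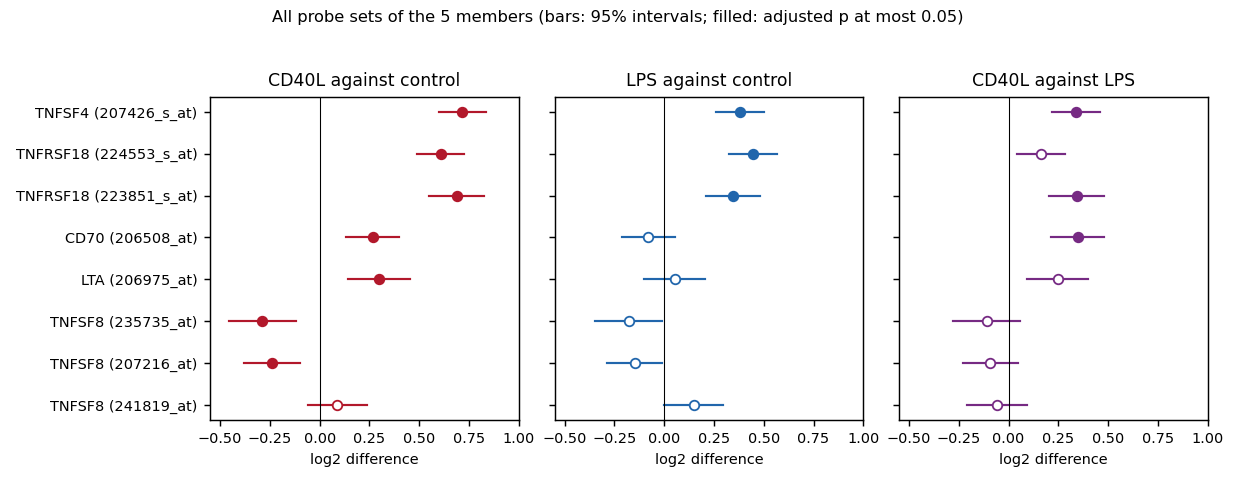
Log2 difference with its 95% confidence interval for every probe set of the 5 members called after CD40L, in the comparisons of CD40L with control, LPS with control and CD40L with LPS, filled where adjusted p is at most 0.05. Both TNFRSF18 probe sets lie above 0 against control, and 1 of the 3 TNFSF8 probe sets lies on the other side of 0 from the other two against control.

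Several members sit next to each other in the genome. With no protein-coding gene between them there were 11 pairs, formed by 18 members on 5 chromosomes. None of the 5 members called after CD40L had an adjacent member that was also called. TNFSF4 differed by 0.72 after CD40L and the adjacent TNFSF18 by 0.01. TNFRSF18 differed by 0.61 and TNFRSF4, next to it, by -0.03. LTA stood at 0.30, TNF at -0.02 and LTB at 0.14, and CD70 at 0.27 between TNFSF9 at -0.11 and TNFSF14 at -0.06. TNFSF8 stood at -0.29 beside TNFSF15 at 0.10. These differences come from different probe sets and were not tested against each other, and TNFSF18, TNF, TNFSF14 and TNFSF15 lay below the median, where a difference is compressed.

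Of superfamily genes that the naming rule leaves out, 8 of 9 were measured. FAS, the death receptor of FAS ligand, was at 7.50, 7.46 and 7.58 after CD40L, 6.95, 7.06 and 6.96 after LPS, and 6.82, 6.61 and 6.75 in control cells. All 3 conditions were apart, at 0.79 after CD40L (standard error 0.065, limma adjusted p = 1.47e-06) and 0.26 after LPS (standard error 0.065, adjusted p = 0.0474). Genes outside the naming rule were not put through the alternative settings, so how far their calls depend on these was not tested. CD40, the receptor that the added ligand binds, was not called (-0.03 after CD40L, -0.01 after LPS). After CD40L, FAS was the one gene of this list called as higher and CD27 the one called as lower. They make 25% of the 8 measured, of which 7 lay above the median, beside 7.95% of named genes and 12.3% of those above the median. Like the members, these genes were chosen with earlier results of these data known.

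Of 20 proximal signalling genes downstream of these receptors, 17 were measured, 4 were higher after CD40L and 2 were lower (35.3%, beside 12.3% of named genes above the median). The list was chosen with earlier results of these data known, so this share is not independent of them. The study itself lists CFLAR as higher after CD40L. Those higher were CFLAR, which encodes the caspase 8 regulator c-FLIP (0.74, adjusted p = 1.62e-05), MAP3K14, which encodes the NF-κB inducing kinase (0.64, adjusted p = 5.09e-05), TANK (0.31, adjusted p = 0.014) and TRAF4 (0.23, adjusted p = 0.031). The adaptor TRAF5 and the ubiquitin ligase BIRC2 were lower, by a difference of -0.23 each (adjusted p = 0.0447 and 0.0328). After LPS, TRAF4 alone was called (0.29, adjusted p = 0.0159), which is 5.88% of the 17 beside 4.81% of named genes above the median. MAP3K14 was at 7.15, 7.13 and 6.97 after CD40L, 6.47, 6.35 and 6.59 after LPS, and 6.35, 6.52 and 6.45 in control cells, so that LPS and control cells overlapped and the CD40L cells lay apart. CD40L exceeded LPS for MAP3K14 (0.61, adjusted p = 0.000629) and CFLAR (0.58, adjusted p = 0.00136).

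**Figure D5:**
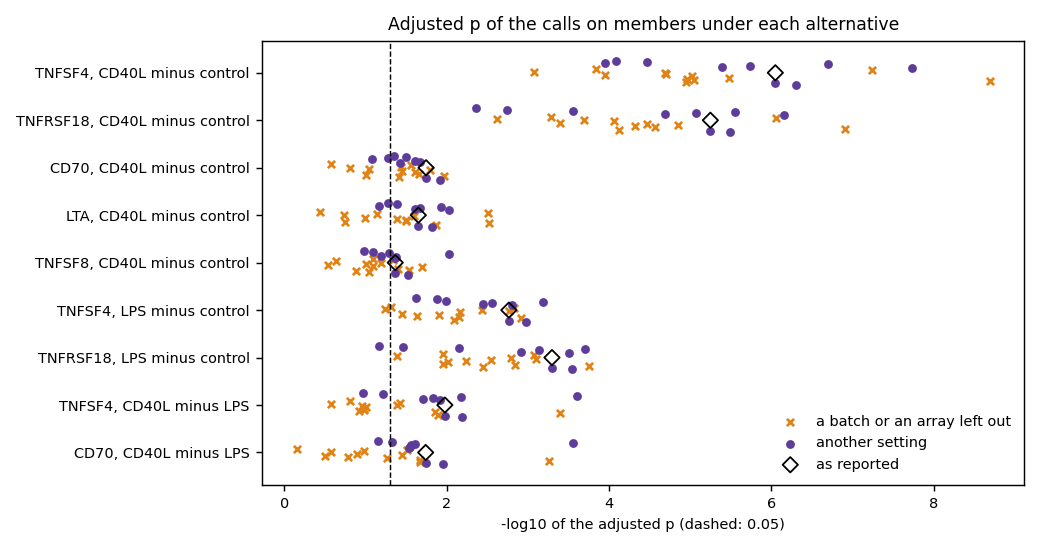
Adjusted p, as its negative log10, of the 9 calls on members as reported (diamonds), with a batch or an array left out (crosses) and under other settings (dots), with a dashed line at 0.05. TNFSF4 and TNFRSF18 after CD40L stay right of the line under all alternatives drawn, while each of the other calls falls on both sides of it. For TNFRSF18 and TNFSF4 after LPS, 1 alternative each lies left of it.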

How the data were processed

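Total RNA of BL2 cells was hybridised to Affymetrix HG-U133 Plus 2.0 arrays. Per the study's methods, the authors corrected and normalized probe intensities across arrays by variance stabilisation and summarised probe sets by median polish, and the deposited values are generalised log2 values, on which differences of dim probe sets are compressed. Software versions are not given in the sources used here. These arrays carry no read depth, and their number limits the precision.

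The 62 control probe sets were left out, which left 54613 of 54675. Of these 41091 named 1 gene, 1801 several and 11721 none, and all 39 members were matched to the current gene table by Entrez identifier. The deposited log2 values were fitted with limma 3.58.1 (R 4.3.3) with condition and batch as terms over the 9 arrays, followed by empirical Bayes moderation and Benjamini-Hochberg adjustment over all probe sets tested, with a threshold of 0.05. Intervals are at the 95% level. The batch is the replicate number, which the sample titles mark as a shared batch. Deviations from the condition means correlated by 0.217 on average between arrays of the same batch and by -0.109 otherwise. A single gene tested by exact permutation of 3 against 3 arrays could not go below 0.1, so no such test was used. The fit was also run on data simulated under its own model with known changes added, which checks the code and not the assumptions of the model.

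The members and gene lists were chosen with earlier results of these data known. Genes named were the members called in any comparison, all members of the BAFF and APRIL, lymphotoxin and TNF, and TRAIL systems, and members whose probe sets disagree on a call; other genes given with values, TNFRSF21 and the remaining costimulation pairs among them, were chosen after their values were seen. Alternatives were the batch as a random effect (statmod 1.5.0) or left out, other normalizations, samples, filters, priors, probe sets and thresholds, and leaving out each batch or array. Adjustment over 1 probe set per gene and the restriction to protein-coding members were added after seeing the data. Promoter windows were taken from RefSeq (GRCh38.p14).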

Additional observations from a re-analysis of the deposited data

How the results depend on the processing

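After CD40L, 5 members were called, and the count was 3 with no replicate block, 2 in a fit on only those 6 arrays, 2 at a threshold of 0.01, and 2 to 6 when a batch or an array was left out. After LPS, 2 were called, 1 with no replicate block, and 1 to 2 in the fits that leave out a batch or an array. For CD40L against LPS, 2 were called, 0 with no replicate block (limma, 4 at an unadjusted p under 0.05), 1 with the block as a random effect, 0 at a threshold of 0.01 (5 at an unadjusted p under 0.05), and 0 to 2 with a batch or an array left out. Over 22 named members and up to 21 alternatives in 3 comparisons, 1316 values kept their side of the threshold, 44 fell behind it, 5 passed it and 0 changed direction as called.

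TNFSF4 and TNFRSF18 after CD40L were called under all 21 alternatives, with log2 differences of 0.68 to 0.75 and 0.57 to 0.69. Of the other calls, the fits that leave out a batch or an array lost that of TNFSF8 in 8 of 12 (adjusted p up to 0.293; kept without batch 2, LPS replicate 2 or 3, or control replicate 1), LTA in 5 (up to 0.364; without batch 1 or 3, CD40L replicate 1 or 3, or control replicate 1), CD70 after CD40L in 4 (up to 0.269; without batch 1, CD40L replicate 1 or 2, or control replicate 1), and CD70 (up to 0.696) and TNFSF4 (up to 0.264) against LPS in 7 each, among them each LPS array. TNFRSF21 was called after CD40L without control replicate 1. In a fit on only the 2 groups compared, CD70 (0.0529), LTA (0.068) and TNFSF8 (0.0512) missed the threshold after CD40L. With the batch as a random effect, TNFSF8 after CD40L (adjusted p = 0.0806, which left 4 members called) and TNFSF4 against LPS (0.0602) were lost, and no other call. With no replicate block, LTA and TNFSF8 after CD40L, TNFRSF18 after LPS, and TNFSF4 and CD70 against LPS were lost, and no other call. After quantile normalization 50.2% of all calls for CD40L and 47.1% for LPS were higher, beside 66.5% and 56.7% as deposited. The cause of these changes was not tested. With 3 arrays a condition, differences of dim members, which are compressed on this scale, could be missed.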

Other observations

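Of the 5 measured germinal centre B cell markers (of 6 listed), MME, BCL6, CD38 and MYBL1 were lower after CD40L and also after LPS. These comparisons share their control arrays. Over all probe sets 1.87% were called lower after CD40L and 0.892% after LPS. Of named genes above the median it was 4.47% and 2.3%. BCL6, the transcription factor that maintains the germinal centre programme, differed by -0.47 after CD40L (limma adjusted p = 0.00021) and by -0.31 after LPS (adjusted p = 0.0144), and CD38 by -0.65 (adjusted p = 9.61e-06) and -0.33 (adjusted p = 0.0106). S1PR2 was not called (-0.07 and -0.14).

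The 3 noncoding genes that carry a receptor's name were not called in any comparison on their brightest probe sets (limma, 0 at an unadjusted p under 0.05). TNFRSF14-AS1 differed by -0.13 after CD40L and by -0.12 after LPS on that probe set, but by 0.17 (unadjusted p = 0.0231, limma adjusted p = 0.202) and 0.11 on another at the 66.5th percentile, so that its direction depends on the probe set; TNFRSF10A-DT differed by -0.01 and 0.02, and TNFRSF10B-AS1 by 0.02 and 0.10.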
